A study of Sus scrofa with 8 samples.

Results

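The olfactory signal transduction genes are the genes whose proteins turn the binding of an odorant into a current in the olfactory sensory neuron. The 8 genes described here are GNAL, GNG13, ADCY3, CNGA2, CNGA4, ANO2, RTP1 and STOML3, chosen by their pig gene name in Ensembl. Each matched 1 of the 22516 gene identifiers in the data, and all 8 were among the 21318 genes that had at least 1 read count over the libraries and were tested. Of the 8 genes, 6 also passed filterByExpr, a stricter filter on low counts. GNG13 and RTP1 did not pass it, and their values rest on a few counts per library.

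In a mature olfactory sensory neuron, an odorant binds a receptor in the membrane of the cilia, and the receptor activates the G protein Golf. GNAL encodes the alpha subunit of Golf and GNG13 a G protein gamma subunit. Golf activates adenylyl cyclase 3, encoded by ADCY3, which makes cyclic AMP. Cyclic AMP opens a cation channel whose subunits include CNGA2, the principal subunit, and CNGA4, a modulatory subunit. The calcium that enters opens the chloride channel ANO2, which enlarges the current. RTP1 helps olfactory receptors reach the cell surface, and STOML3 is a membrane protein of the stomatin family that is found in olfactory cilia and is also known for its part in touch sensing. Several of these genes are used by other cells too, GNAL in the striatum of the brain and ADCY3 in many primary cilia, for example.

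The data are RNA-seq of the olfactory epithelium (OE) from 4 sows, the offspring of Landrace boars and Rongchang sows, which were 8 months old and in estrus. In the androstenone treatment group (2 sows), the nasal cavity was sprayed with Boarmate, a commercial product that mainly contains the boar pheromone androstenone, and the OE was taken 30 min later. In the control group (2 sows) no solution was given, so that the comparison holds the effect of spraying itself as well as that of the compound. The left and right OE of each sow gave a library each, 4 per group, but the labels do not tie libraries to sows, so p-values measure the spread between libraries and not between animals. The tissue pieces were not sorted, and in such bulk samples fewer cells of a type and less RNA per cell cannot be told apart.

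Some libraries stood apart from the rest. Control 1 held 4178330 deposited counts, against 81580146 to 100685566 in the other 7 libraries, although the study lists about as many clean reads for it as for the others. In these counts 3 counts, taken as the detection floor, were therefore worth 0.616 CPM in it and at most 0.0451 CPM elsewhere. CPM is the count per 1000000 counts of the library, after the total was multiplied by a TMM factor that corrects for a few genes taking much of a library. In control 4 the 10 most abundant genes took 29.4% of the counts, against 6.57% to 9.02% in the others. The tissue label was checked against 13 transcription factors and surface proteins of olfactory sensory neurons, of which 12 were in the data. The defining transcription factors EMX2 and LHX2 reached at most 0.209 and 0.0982 CPM in the 7 libraries other than control 1, where both had 0 counts. Other transcription factors of the list were higher, EBF1 at 3.38 to 39.3 CPM, EBF3 at 1.38 to 25.2 and ATF5 at 7.12 to 15.4. EBF2 had 0.104 to 1.58 CPM. Of the 12 genes 6 had a mean under 1 CPM, and LDB1 and NCAM1 had the highest mean TPM of the list (84.0 and 14.4). The canonical marker of mature neurons, OMP, matched no identifier and was not analysed here. The summed CPM of the 12 olfactory neuron genes ran from 105 in androstenone 2 to 608 in control 4. That of 18 genes of respiratory ciliated cells ran from 1087 in control 2 to 6153 in control 3. None of the 18 had a mean under 1 CPM.

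The levels of the 8 genes spanned several orders of magnitude. TPM, which is corrected for transcript length, allows genes to be compared, and by mean TPM over the 8 libraries the order was STOML3 (94.6), ANO2 (26.7), ADCY3 (10.7), GNAL (4.16), CNGA2 (1.91), CNGA4 (0.392), GNG13 (0.169) and RTP1 (0.0212). Of all tested genes, 5.77% had a higher mean TPM than STOML3, 22.4% than ANO2 and 42.7% than ADCY3. The median tested gene had a mean of 7.21 TPM, so GNAL and the genes after it lay under the middle of the table. The 2 channel subunits stood at 66.2% (CNGA2) and 81.0% (CNGA4) of tested genes with a higher TPM, and the 2 lowest genes at 86.9% (GNG13) and 95.5% (RTP1). Most neighbours in this order changed places between libraries. STOML3 had a higher TPM than ANO2 in 6 of 8 libraries, ANO2 than ADCY3 in 5, GNAL than CNGA2 in 6, CNGA2 than CNGA4 in 5 and CNGA4 than GNG13 in 6. ADCY3 was above GNAL in 8 of 8 libraries although their ranges overlapped, and GNG13 was above RTP1 in 7 of the 7 libraries other than control 1, in which the 2 genes had 1 and 0 counts and cannot be ordered.

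**Figure D1:**
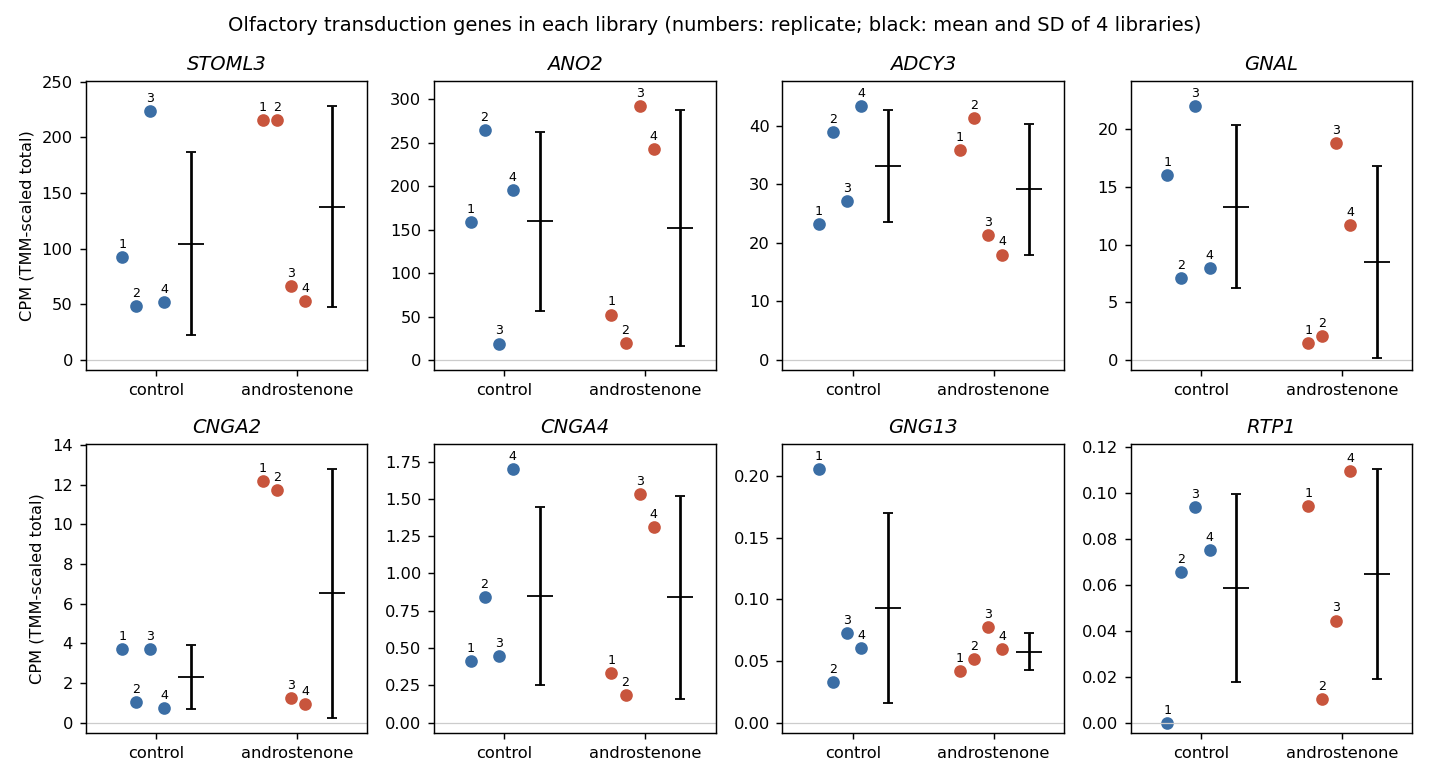
CPM (TMM-scaled, linear axis from 0 in each panel) of the 8 olfactory signal transduction genes in each library. Points are libraries with their replicate number, black bars are the mean and SD of 4 libraries per group. In every panel the control and the androstenone points overlap, and in the panels of CNGA2 and GNAL androstenone 1 and 2 lie far from androstenone 3 and 4.

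The genes of the G protein were GNAL and GNG13. GNAL (ENSSSCG00000022163) is placed by the RefSeq annotation of Sscrofa11.1 on chromosome 6, 97342468 to 97429334. Its CPM was 16.0, 7.14, 22.0 and 7.94 in control 1 to 4. In androstenone 1 to 4 it was 1.46, 2.05, 18.8 and 11.7. The lowest values, in androstenone 1 and 2, lay under every control library, whereas androstenone 3 and 4 lay inside the control range. The means were 13.3 ± 7.05 CPM in the control group and 8.50 ± 8.30 CPM in the androstenone treatment group (SD, n = 4 each). The RefSeq locus overlaps those of MPPE1, CHMP1B and TRNAG-UCC, and since no source used here gives the strand of the reads, reads of overlapping exons may not be told apart. GNG13 (ENSSSCG00000008011, chromosome 3, 40997556 to 41000718) had 1, 3, 7 and 4 counts in control 1 to 4 and 4, 5, 7 and 6 in androstenone 1 to 4. All 8 values were under 1 CPM, and those of control 1 and 2 were at or under the floor of 3 counts. The locus overlaps that of CHTF18.

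ADCY3 (ENSSSCG00000008578, chromosome 3, 113875005 to 113969053), the adenylyl cyclase, varied least. Its CPM was 23.2, 38.9, 27.1 and 43.3 in control 1 to 4 and 35.9, 41.3, 21.3 and 18.0 in androstenone 1 to 4. The highest library, control 4, was 2.40-fold above the lowest, androstenone 4. The means were 33.1 ± 9.51 and 29.1 ± 11.2 CPM (SD, n = 4 each). The SD of its log2 CPM over the 8 libraries was 0.48, close to the median of 0.50 over the 18347 genes that passed filterByExpr, of which 51.2% varied as much or more. The locus overlaps that of CENPO.

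The channel subunits differed from each other in where they were high. CNGA2 (ENSSSCG00000012753, chromosome X, 123115980 to 123130043) had 3.70, 1.05, 3.69 and 0.737 CPM in control 1 to 4. In androstenone 1 to 4 it had 12.2, 11.7, 1.23 and 0.945 CPM. Androstenone 1 and 2 were above all other libraries, and androstenone 3 and 4 were inside the control range. The value of control 1 came from 18 counts, with an exact 95% Poisson interval of 2.19 to 5.84 CPM, which covers counting error only. CNGA4 (ENSSSCG00000014630, chromosome 9, 3430995 to 3438411) had 0.411, 0.840, 0.449 and 1.70 CPM in the control libraries. In the androstenone libraries it had 0.335, 0.185, 1.53 and 1.31 CPM. The highest values were those of control 4 and androstenone 3 and 4, all libraries where CNGA2 was low, and the lowest were those of androstenone 1 and 2, where CNGA2 was high. The value of control 1 rests on 2 counts (95% Poisson interval 0.0498 to 1.48 CPM) and does not place that library. The ratio of CNGA2 to CNGA4 on TPM was 8.40, 1.17, 7.69 and 0.401 in control 1 to 4 and 33.4, 59.5, 0.750 and 0.671 in androstenone 1 to 4.

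ANO2 (ENSSSCG00000000712, chromosome 5, 64660047 to 65002453), the chloride channel, had the widest spread of log2 CPM of the 6 transduction genes described here that passed filterByExpr. Its CPM was 159, 264, 19.0 and 196 in control 1 to 4 and 52.4, 19.3, 292 and 243 in androstenone 1 to 4. Control 3 and androstenone 1 and 2 were low and the other 5 libraries held at least 159 CPM, so both groups held low and high libraries. Androstenone 3 was 15.3-fold above control 3. The SD of log2 CPM was 1.67, and 4.99% of the 18347 genes varied as much or more. For CNGA2 the SD was 1.61 (5.74% of genes), for GNAL 1.45 (7.65%), for CNGA4 1.12 (14.7%) and for STOML3 1.00 (19.1%).

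RTP1 (ENSSSCG00000037108, chromosome 13, 124935515 to 124942119), the chaperone of olfactory receptors, was at the limit of detection. It had 0, 6, 9 and 5 counts in control 1 to 4 and 9, 1, 4 and 11 in androstenone 1 to 4, and its highest value was 0.109 CPM in androstenone 4. The 0 in control 1 allows up to 0.616 CPM, more than any other library held, so that library does not place RTP1. The locus overlaps that of MASP1. The related gene RTP2 had 0 counts in all 8 libraries.

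STOML3 (ENSSSCG00000058949, chromosome 11, 14131203 to 14151361) was the most abundant of the 8 genes on TPM. Its CPM was 92.9, 48.8, 223.9 and 51.9 in control 1 to 4 and 215.8, 215.0, 66.4 and 52.7 in androstenone 1 to 4. Control 3 and androstenone 1 and 2 were high and lay within a narrow range, and the other libraries had at most 92.9 CPM. These are the libraries in which ANO2 was low. The means were 104 ± 82.2 CPM in the control group and 138 ± 90.2 CPM in the androstenone treatment group (SD, n = 4 each).

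The 8 genes were then compared with each other over the libraries. Likeness of a pair was measured by the SD of the log2 ratio of their CPM over the 8 libraries, which is 0 for genes in constant proportion and does not depend on how a library is scaled, and by how many of the 28 pairs of libraries both genes put in the same order. No correlation and no p is given, since libraries of 1 sow are not independent. Of the 28 pairs of genes, CNGA2 and STOML3 had the smallest SD, 0.79, and put 23 of the 28 library pairs in the same order. Both were highest in control 3 and androstenone 1 and 2, with control 1 as high as control 3 for CNGA2. On TPM, CNGA2 was between 0.00799 and 0.0319 of STOML3.

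ANO2 and CNGA4 varied together less tightly. Their SD was 1.01, with 21 library pairs in the same order, and it was 0.72 without control 3, in which the TPM of ANO2 was 15.3 times that of CNGA4 against 37.8 to 139 times in the others. ADCY3 and STOML3 had the same SD of 1.01 but only 14 library pairs in the same order. A small SD with a gene that hardly moves therefore does not show that the genes moved together.

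ANO2 and STOML3 moved in opposite directions. Their SD was 2.63, between 2.37 and 2.83 with any 1 library left out, and 23 of the 28 library pairs were in opposite order. On TPM, ANO2 was 0.375, 1.18, 0.0186 and 0.825 of STOML3 in control 1 to 4. In androstenone 1 to 4 it was 0.0531, 0.0196, 0.961 and 1.01 of it. In control 3 and androstenone 1 and 2 the ratio was at most 0.0531, and in the other 5 libraries at least 0.375, a split that divides both groups. CNGA2 and CNGA4, subunits of the same channel, had an SD of 2.68 with 25 library pairs in opposite order. The largest SD, 3.11, was that of ANO2 and CNGA2, with 18 library pairs in opposite order.

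**Figure D2:**
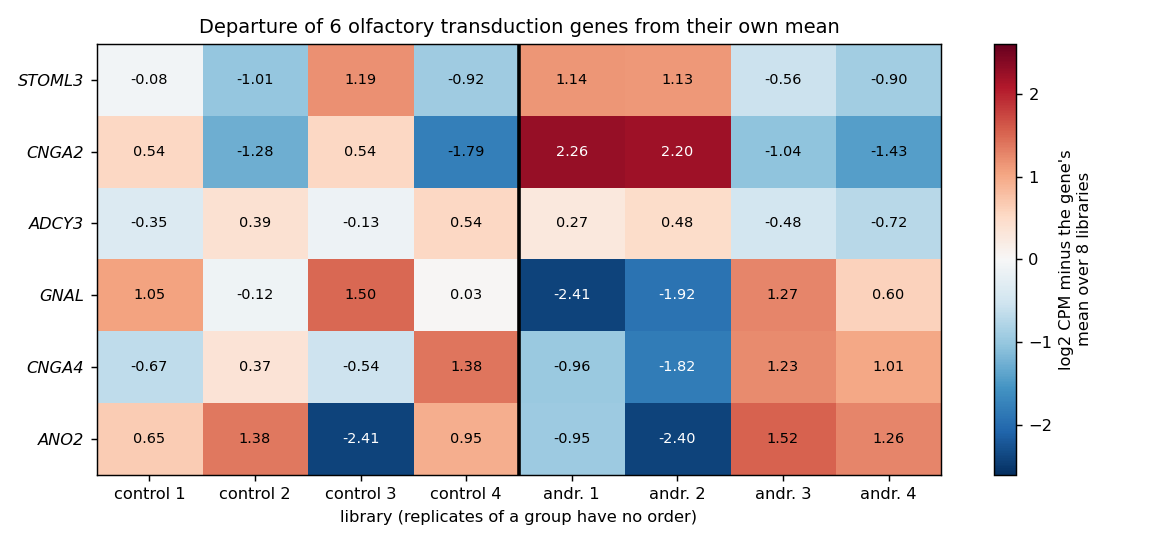
Departure of log2 CPM from each gene's own mean over the 8 libraries (colour and number, log2 units) for the 6 genes that passed the filter on low counts, with the control libraries left and the androstenone libraries right of the black line. STOML3 and ANO2 have opposite signs in all 8 libraries, and CNGA2 (2.26 and 2.20) and GNAL (-2.41 and -1.92) have opposite signs in androstenone 1 and 2.

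GNAL kept close to STOML3 among the control libraries and far from it among the androstenone libraries, a contrast that was not tested. Among the control libraries the SD of its log2 ratio to STOML3 was 0.35, and that to CNGA2 0.53. Among the androstenone libraries the same SDs were 2.87 and 3.77. In androstenone 1 and 2 GNAL was 0.00320 and 0.00453 of STOML3 on TPM, against 0.0466 to 0.0824 in the control libraries and 0.134 and 0.106 in androstenone 3 and 4. The ratio of ADCY3 to GNAL on TPM was 1.34, 5.08, 1.15 and 5.09 in control 1 to 4 and 23.0, 18.8, 1.06 and 1.43 in androstenone 1 to 4. Androstenone 1 and 2 thus held CNGA2 high and GNAL low at once. For all 28 pairs of genes, the log2 ratios of the control and of the androstenone libraries overlapped.

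**Figure D3:**
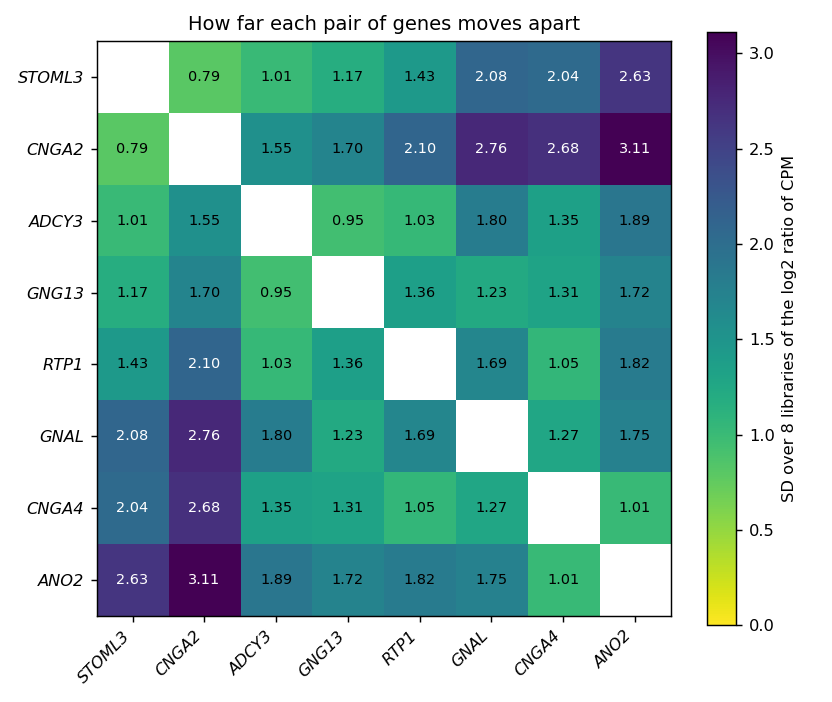
SD over 8 libraries of the log2 ratio of CPM (log2 units) for pairs of the olfactory signal transduction genes. The pair of CNGA2 and STOML3 is closest (0.79) and that of ANO2 and CNGA2 farthest apart (3.11). The genes of these pairs put 23 and 10 of the 28 library pairs in the same order.

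STOML3 stayed in a nearly fixed proportion to the genes of respiratory ciliated cells, the multiciliated cells of the airway lining. The list held 20 genes such as FOXJ1, the master regulator of motile cilia, and 18 of them were in the data. Their summed CPM was 2365, 1087, 6153 and 1272 in control 1 to 4. In androstenone 1 to 4 it was 4846, 5162, 1585 and 1343. Per 1000 CPM of this sum, STOML3 had 39.3, 44.9, 36.4 and 40.8 CPM in the control libraries. In the androstenone libraries it had 44.6, 41.7, 41.9 and 39.3 CPM. While STOML3 itself varied 4.59-fold, this ratio thus stayed between 36.4 and 44.9, with an SD of 0.10 on the log2 scale and 27 of the 28 library pairs in the same order. Of 15927 genes with a mean of at least 1 CPM outside the list, 7 had a smaller SD to the sum, and the median SD was 1.08.

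The other genes did not keep such a proportion. CNGA2 had an SD of 0.84 to the ciliated sum, smaller than the median, but 3516 of the 15927 genes had a smaller SD than CNGA2. CNGA2 put 22 library pairs in the same order as the sum and had 0.599 to 2.52 CPM per 1000 CPM of it. Its highest ratios were those of androstenone 1 (2.52) and androstenone 2 (2.27), and that of control 3, with the largest ciliated sum, was 0.604. ADCY3 (SD 1.05), GNAL (2.05) and ANO2 (2.66) were near or above the median, and ANO2 had 4 library pairs in the same order. ANO2 ran from 3.10 CPM per 1000 CPM of the sum in control 3 to 243 in control 2. CNGA4 was closer to the summed olfactory neuron list, with an SD of 0.66 and 24 library pairs in the same order, although that sum is mostly LDB1 and NCAM1, which other cells also express. The share of ciliated cells in each tissue piece was not measured, and its part in the values of STOML3 and CNGA2 was not tested.

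**Figure D4:**
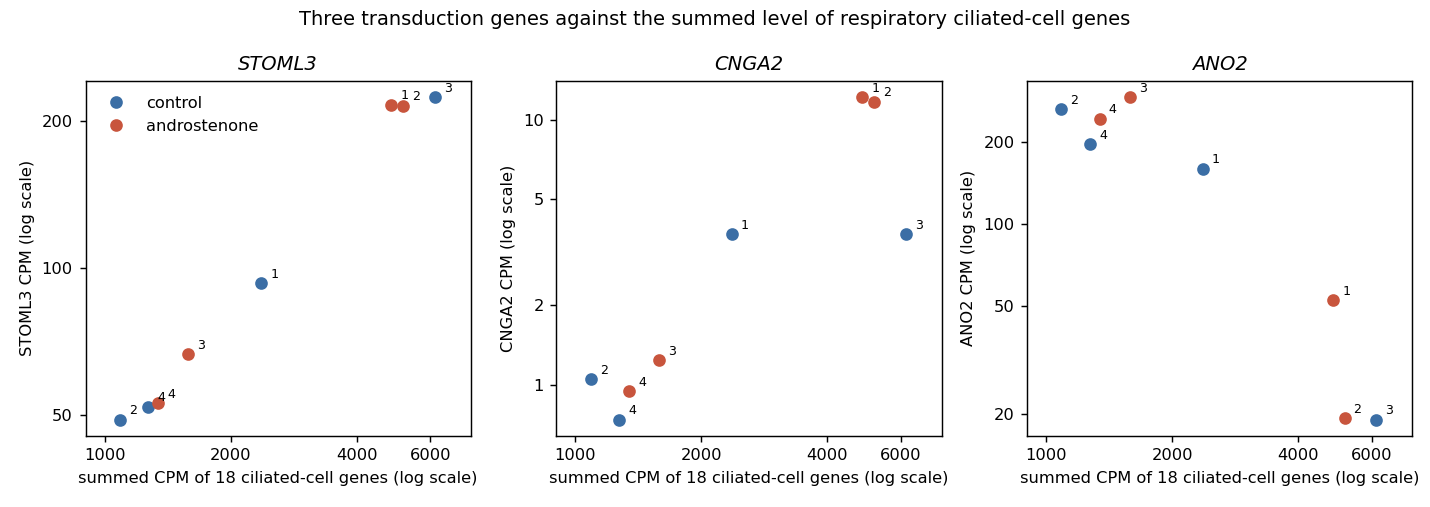
CPM of STOML3, CNGA2 and ANO2 (vertical, log scale) against the summed CPM of 18 genes of respiratory ciliated cells (horizontal, log scale), with 1 point per library and its replicate number. STOML3 rises along a line with the sum in both groups, CNGA2 follows it loosely with control 3 below androstenone 1 and 2, and ANO2 is low in the 3 libraries with the largest sums.

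The genes with the most similar pattern were sought among 13445 genes with a symbol and a mean of at least 1 CPM, again by the SD of the log2 ratio over the 8 libraries. For STOML3 they were CNDP1 (a dipeptidase, 0.05), RFX2 (a transcription factor of ciliated cells, 0.09) and DNAAF11 (an assembly factor of ciliary dynein, 0.09), against a median of 1.05 over all genes compared. CNDP1 had 22.2, 11.2, 57.2 and 13.2 CPM in control 1 to 4 and 52.3, 55.3, 16.5 and 13.0 CPM in androstenone 1 to 4. The nearest genes to ANO2 were RTN4RL2 (a Nogo receptor family member, 0.15), FBLN2 (the matrix protein fibulin 2, 0.22) and NPR1 (a natriuretic peptide receptor, 0.24), against a median of 1.71. FBLN2 had 3.56 CPM in control 3, 10.3 and 5.39 CPM in androstenone 1 and 2, and 27.9 to 63.8 CPM in the other libraries. None of these genes encodes a part of the odorant cascade.

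For CNGA2 the nearest genes were ABCC11 (a transporter, 0.32), SYT5 (a synaptotagmin, 0.34) and CIMIP2A (a ciliary microtubule protein, 0.35), against a median of 1.65. SYT5 had 32.1 and 35.2 CPM in androstenone 1 and 2 and at most 8.11 CPM in the other 6 libraries. ADCY3 was nearest to QSOX1 (a sulfhydryl oxidase, 0.11), KBTBD6 (0.16) and ALDH1B1 (an aldehyde dehydrogenase, 0.17), and CNGA4 to RBP5 (a retinol-binding protein, 0.27), ENPP6 (0.34) and KLF11 (a transcription factor, 0.35), with medians of 0.66 and 1.17. GNAL had no close neighbour, the nearest being F13A1 (a chain of coagulation factor XIII, 0.76), IL20RB (a cytokine receptor chain, 0.77) and KCNN2 (a potassium channel, 0.77) against a median of 1.53. The nearest to GNG13 were MISFA (0.27), ESR2 (an estrogen receptor, 0.30) and EPM2A (0.32), and those to RTP1 were TM4SF4 (0.53), CACNB4 (0.55) and SRD5A2 (0.56). With so few counts of GNG13 and RTP1, these likenesses carry little weight. GNG13 was highest in control 1 on 1 count, and MISFA, ESR2 and EPM2A were also highest there (2.67, 2.88 and 7.60 CPM). RTP1 had 0 counts in control 1. Its log2 CPM there came only from the prior count of 2, scaled to the library total, that was added before taking log2 CPM.

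None of the 8 genes passed the test between the groups. Counts of all 21318 genes were compared by edgeR's quasi-likelihood test, androstenone treatment group against control group, and 0 of 8 genes passed the cutoff of the study, an unadjusted p below 0.05 together with a log2 fold change of 1 or more in either direction. Over all tested genes, 6.42% (1368) passed it, 2.04% upward and 4.38% downward, so that a count of 0 among 8 genes is near this background. After Benjamini-Hochberg adjustment 0 of the 21318 genes (0.0%) passed 0.05, while 2415 (11.3%) had an unadjusted p below 0.05, and DESeq2 called 670 after adjustment, none of them among the 8. The control and androstenone libraries overlapped in CPM for all 8 genes, whereas they did not overlap for 6.53% of tested genes (androstenone above in 3.89%, below in 2.64%).

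CNGA2 had the largest difference of the 8, a log2 fold change of 1.56 (SE 0.96, edgeR adjusted p = 0.545). Its means were 2.29 ± 1.62 CPM in the control group and 6.51 ± 6.27 CPM in the androstenone treatment group (SD, n = 4 each), and the SD of the latter was nearly as large as its mean. There are 9 ways to assign the libraries of each group to 2 sows, and when counts were summed accordingly CNGA2 passed the study's cutoff in 4 pairings, all of which placed androstenone 1 and 2 in different sows. In these 4 pairings 6.84% to 7.96% of all tested genes passed, so 1 of 8 is near that share. Within the androstenone treatment group, the counts of androstenone 1 and 2 and those of androstenone 3 and 4 were the most alike (chi-square per degree of freedom of 108.6 and 113.8, against 715 to 1085 for the other pairs), and these 4 pairings separate them. No other of the 8 genes passed in any pairing. GNAL had a log2 fold change of -0.64 (SE 0.80, edgeR adjusted p = 0.753), and STOML3 one of 0.40 (SE 0.64, adjusted p = 0.811).

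ADCY3, with the smallest spread, had a log2 fold change of -0.19 (SE 0.32, edgeR adjusted p = 0.821). Those of ANO2 (-0.07, SE 0.92, adjusted p = 0.982) and CNGA4 (-0.08, SE 0.74, adjusted p = 0.973) were close to 0, but their SEs leave room for a sizeable change in either direction. ANO2 had 160 ± 103 and 152 ± 136 CPM in the 2 groups (SD, n = 4 each). GNG13 and RTP1 were fitted at -0.17 each (adjusted p = 0.994 and 0.938) from 37 and 45 counts in all, which is too few to show a difference. The median log2 fold change of all tested genes was -0.02 and that of the 8 genes -0.13, with 2 above and 6 below 0.

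**Figure D5:**
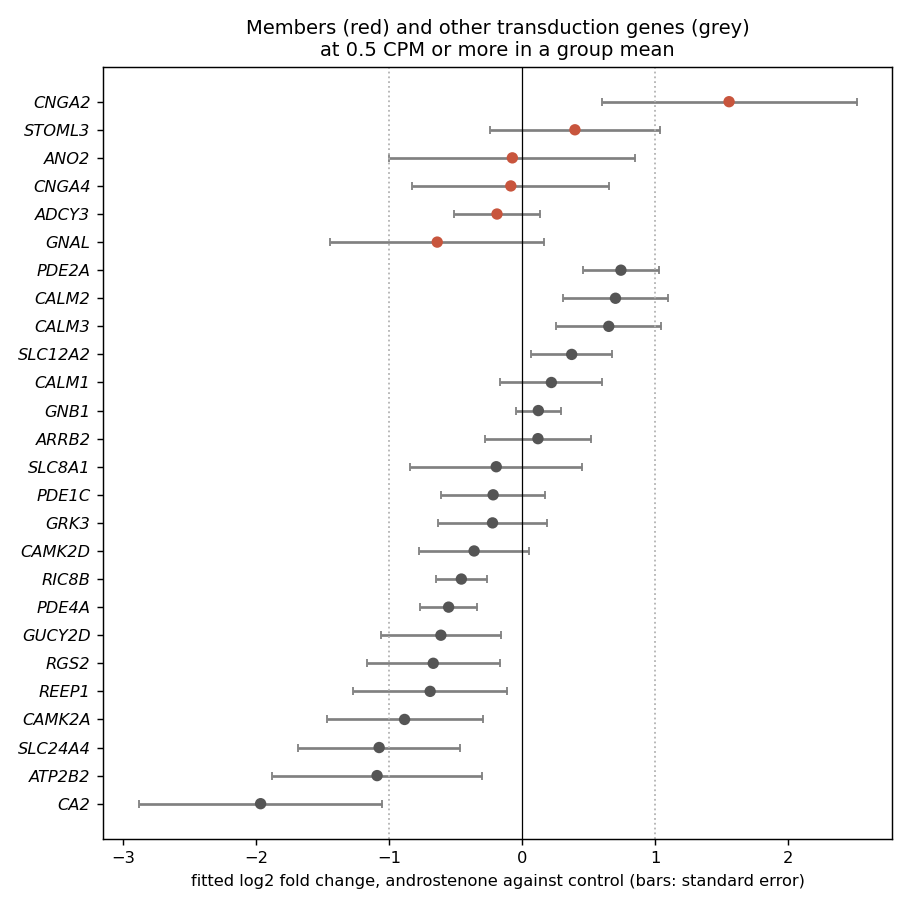
Log2 fold change (androstenone treatment group minus control group, horizontal, edgeR) of olfactory signal transduction genes, with bars of 1 SE. Of the 6 genes described here that passed the filter on low counts, CNGA2 is farthest from 0 (1.56, SE 0.96). Among the same 6 genes ADCY3 has the shortest bar (SE 0.32), and none passed the study's cutoff.

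Of 24 further genes of the pathway (G protein and receptor helpers, phosphodiesterases, kinases, calcium sensors and ion transporters), 21 were tested, and 0 of 21 passed the study's cutoff, which is near the 6.42% of all tested genes that did. The fitted changes were above 0 for 8 and below 0 for 13, with a median of -0.22. CNGB1, the subunit that completes the channel, matched no identifier. CALM2, a calmodulin gene that all cells use, had the highest mean TPM of the list (823). CALM2 had 252, 247, 496 and 378 CPM in control 1 to 4 and 755, 810, 356 and 314 CPM in androstenone 1 to 4, again high in androstenone 1 and 2 (log2 fold change 0.70, SE 0.39, edgeR adjusted p = 0.512). The libraries of the groups did not overlap for 1 of the 21 genes, PDE4A, a phosphodiesterase that degrades cyclic AMP, which is named after its values were seen. PDE4A had 11.5 to 18.3 CPM in the control libraries and 8.45 to 10.9 CPM in the androstenone libraries (log2 fold change -0.55, SE 0.21, edgeR adjusted p = 0.417), a size under the cutoff, and its share, 1 of 21, stands beside 2.64% of all tested genes.

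Markers of other cells in the tissue are given as counts of genes past the study's cutoff, to be read beside the 6.42% of all tested genes that passed it (2.04% upward, 4.38% downward). In the bone and cartilage list 11 of 13 genes were lower in the androstenone treatment group, and those of smallest p were COL9A1 (-3.27), ACAN (-5.60), SP7 (-4.75) and COL1A1 (-4.36) on the log2 scale, and COL1A2 had the highest mean TPM of the list (5589). This list summed to 331174 CPM in control 4, to 6515 to 26087 CPM in the other control libraries and to 2169 to 8521 CPM in the androstenone libraries. NCAM1, the 1 of 12 genes of the olfactory neuron list past the cutoff, was lower (-3.96, edgeR adjusted p = 0.403), at 373 CPM in control 4, 88.9 in control 2 and at most 12.1 in the others. DPYSL3, an immature neuron gene, had 283 CPM in control 4, 116 in control 2, and 29.6 and 14.8 in control 1 and 3. In the androstenone libraries it had 13.5 to 38.2 CPM. GAP43 of the same list had 0.501 to 1.55 CPM in the control and 0.349 to 0.677 in the androstenone libraries. Both were fitted lower (DPYSL3 -2.13, GAP43 -1.05, edgeR adjusted p = 0.429 and 0.421), as 2 of 10 genes past the cutoff. MCIDAS, which starts the making of multiciliated cells, was the only 1 of 18 ciliated genes past it (3.13, edgeR adjusted p = 0.416), with 122.6 and 180.2 CPM in androstenone 1 and 2 and 4.63 to 18.8 CPM in the other 6 libraries, the same 2 libraries in which CNGA2 was highest. The ciliated genes of highest mean TPM were TPPP3 (566) and ROPN1L (309.8).

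Among the solitary chemosensory genes, which mark cells with a signalling cascade of their own, CHAT was the 1 of 9 past the cutoff (-4.18), with at most 14 counts in any library. TRPM5 of the same list, named after its values were seen, had 1.60 and 2.82 CPM in androstenone 1 and 2 and 0.205 to 0.496 CPM in the others. GNAT3, DCLK1 and ALOX5AP are set beside it, also after their values were seen. GNAT3 was highest in the same libraries (0.503 and 0.349 CPM, against 0.149 to 0.331). Its 0.349 CPM in androstenone 2 and 0.331 CPM in control 4 rest on 34 and 22 counts. The values of TRPM5 and GNAT3 in control 1 rest on 1 count each. DCLK1 (0.984 and 0.820 CPM, against 0.803 to 21.8) and ALOX5AP (3.39 and 2.30 CPM, against 1.97 to 6.30) were low in androstenone 1 and 2. The list thus did not move as one. The gland genes LYZ (1.36, edgeR adjusted p = 0.393) and SCGB1A1 (-3.39, adjusted p = 0.429) passed in opposite directions, as 2 of 8, and the groups overlapped for both. LYZ had 184, 249, 75.5 and 104 CPM in androstenone 1 to 4 and 40.2 to 79.4 in the control libraries. SCGB1A1 had 47.9 to 1145 CPM in the control and 2.33 to 117 CPM in the androstenone libraries. Of the sustentacular genes 0 of 4 passed, and of the ensheathing glia genes 0 of 7. The most abundant genes of these lists on mean TPM were ITPR3 and ALOX5AP, BPIFA1 and SCGB1A1, CBR2 and HES1, and ERBB3 and NGFR. The part of these other cells in the values of the 8 transduction genes was not tested.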

How the data were processed

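Per the labels and methods, reads were trimmed by fastp 0.23.1 and assigned to the Ensembl transcripts of Sscrofa11.1 by kallisto 0.48.0. The deposited values of the authors are, for each gene and library, an estimated count that is not normalized and a TPM value scaled to transcript length and library total. No source used here states how transcripts were summed to genes. After 1 factor per library, estimated counts per TPM were constant within 0.1% in 100.0% of the 13265 genes with enough counts to check, so the deposited TPM is no independent measure of differences between libraries.

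The 8 genes and all gene lists were chosen with earlier results of these data known. Symbols came from a name table that matched 15527 of 22516 identifiers, and coordinates from the RefSeq annotation of Sscrofa11.1. The estimated counts were rounded, 1157 genes with an estimate of 0 in every library and those under 1 count in all were left out, and 21318 genes were tested with edgeR 4.0.16 in R 4.3.3 (TMM factors, quasi-likelihood test, treatment as the only term, all 8 libraries). The study named edgeR and its cutoff but no particular test or adjustment. Intervals are exact Poisson intervals and cover counting error only, since PCR copies are not independent molecules. The deposited counts summed to 4178330 in control 1 and at least 81580146 in the others, a gap that the study's clean read numbers do not share and whose source was not tested. No 2 libraries agreed within sampling noise. The test script was checked on simulated counts. In them the spread between libraries was capped and only genes with many counts were changed. The check therefore does not cover genes with few counts, such as GNG13 and RTP1.

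The text names the 8 genes, of each other list the genes past the study's cutoff (at most 4, by smallest p) and the 2 of highest mean TPM, and the 3 genes nearest to each of the 8. Genes named outside this rule include other transcription factors of the olfactory neuron list, PDE4A, TRPM5, GNAT3 and DCLK1. A gene that this rule names is not reported here. The marker lists were of olfactory neurons, immature olfactory neurons, respiratory ciliated cells, solitary chemosensory cells, sustentacular cells, nasal glands, bone and cartilage, and ensheathing glia. Alternatives were a likelihood ratio test, DESeq2 1.42.0, limma voom (3.58.1), RLE factors or library size only, filterByExpr or no filter, limma on log2(TPM + 0.1) or with 1 added in place of 0.1, a block for the replicate number, sums per sow over 9 pairings, and each library left out. Leaving out control 1 and 4 together was added after the data were seen. No sequences are shown.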

Additional observations from a re-analysis of the deposited data

Results flagged for a closer look

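The summed bone and cartilage markers were 331174 CPM in control 4, against 6515 to 26087 CPM in the other control libraries. The gap to the nearest library was 0.94 of the range of the group, above Dixon's 95% critical value for 4 samples. Of 34 groups examined in this way (each of the 8 genes and each list in each group), 1 stood out, and chance alone marks about 1 in 20. No single transduction gene stood out in either group. Without control 1 and 4, an alternative chosen after the data were seen, 0 of the 8 genes passed the study's cutoff.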

How the results depend on the processing

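The number of genes past the study's cutoff, 1368, was 718 on log2(TPM + 0.1), 319 on log2(TPM + 1), 583 with the replicate number as a block and 881 without control 1 and 4 together, and ran from 867 (without androstenone 1; 881 without androstenone 2) to 2414 (without control 3) with 1 library left out. Summed per sow it was 736, 368, 767, 733 and 853 in 5 of the 9 pairings and 1495, 1459, 1696 and 1642 in the 4 that called CNGA2. After adjustment the number, 0, became 670 in DESeq2, 200 by a likelihood ratio test, 1 with library size only and 2 on log2(TPM + 0.1). Of the 8 genes 0 passed in the 24 other alternatives, and 1, CNGA2, in 4 sow pairings (log2 fold changes of 1.84, 1.84, 1.95 and 1.97). Of the other pathway genes, 1 passed with the likelihood ratio test and 1 in each of 2 sow pairings, and 0 to 3 with 1 library left out (3 without control 2).

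Fold changes near 0 changed sign, none of them past the cutoff. ANO2 was 0.0093 with library size only, 0.059 without control 1 and 4, 0.25, 0.21 and 0.21 in 3 sow pairings, and from -0.60 to 0.28 with 1 library left out. CNGA4 was 0.15 with library size only, 0.34 without control 1 and 4, 0.049, 0.012 and 0.0063 in 3 pairings, and from -0.54 to 0.49 with 1 library left out. GNG13 was 0.071 without control 1 and 4, 0.084, 0.050 and 0.052 in 3 pairings, and from -0.47 to 0.059 with 1 library left out. RTP1 was 0.0096 on log2(TPM + 0.1), 0.0012 on log2(TPM + 1), and from -0.54 to 0.16 with 1 library left out. STOML3 was -0.030 without control 1 and 4. The cause was not tested. ADCY3 and GNAL stayed below 0 and CNGA2 above 0 in all alternatives run, but their sizes moved. GNAL ran from -0.26 without control 3 to -1.38 without androstenone 3, ADCY3 from -0.016 without androstenone 4 to -0.43 without androstenone 2, and CNGA2 from 0.59 on log2(TPM + 1) to 2.02 without control 3. STOML3 was 1.10 without control 3, 0.071 without androstenone 2 and 0.0062 in 1 sow pairing. The SD of the log2 ratio of ANO2 to GNAL, 1.75, was 0.81 without control 3, and that of GNG13 to RTP1, 1.36, was 0.72 without control 1.

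Same-numbered libraries of the groups did not deviate together (correlations of -0.04, -0.50, -0.60 and 0.17), so the numbers did not pair them, and with the replicate number as a block 0 of the 8 genes passed. Few deposited counts limit CNGA4, GNG13 and RTP1 in control 1, and GNG13 and RTP1 in every library.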
